A study of Mus musculus with 6 samples.

Results

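The genes that encode the proteins of the cytosolic ribosome were compared between control and Snai1 knockout mouse small intestinal organoids. Members were chosen by symbol in the platform's annotation: Rpl or Rps followed by a number, with an optional a, l, x or y, plus Rplp0, Rplp1, Rplp2 and Rpsa, without pseudogene names in -ps and without the Rps6k kinases. This gave 59 of 19057 measured genes, 35 of the large subunit and 24 of the small subunit, seen by 88 probes. The GRCm38.p6 gene table holds 23 further protein-coding names that match the rule, among them Rpl5, Rpl11, Rps27 and Rps27a, which the annotation pairs with no probe and which were not analysed here. Of the 59, Rps4l is listed in that table as a transcribed pseudogene, and the other members as protein-coding.

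Transcripts were profiled on 6 Illumina arrays. Organoids, epithelial structures grown in culture from intestinal crypts, came from Villin-Cre mice (control, 3 arrays) or from mice of the strain Villin-Cre, Snai1fl/fl (Snai1 knockout, 3 arrays). Both groups carried the Cre transgene, which the Villin promoter drives in intestinal epithelium, and both had been given 0.5 µM tamoxifen for 24 hours, so the groups differed in the floxed Snai1 alleles. The labels give no age or sex, do not say in which form Cre responds to tamoxifen, and leave unsaid if replicates are different animals, cultures or only repeat preparations. A p-value here therefore reflects the scatter of these 3 samples a group, part or all of which may be technical. In bulk organoids, fewer cells of a type and less RNA per cell cannot be told apart.

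The ribosome is the machine that translates mRNA, built from ribosomal RNAs and one copy of nearly every ribosomal protein. The small subunit holds the mRNA and reads its codons, and the large subunit forms peptide bonds and releases the chain through an exit tunnel. Ribosomal protein mRNAs belong to the most abundant of a growing cell. Most begin with a C followed by a run of pyrimidines at the very start of the transcript, the 5′ terminal oligopyrimidine (TOP) tract, through which the kinase mTOR and the protein Larp1 govern their translation. In the intestine, rapidly dividing crypt cells make ribosomes at a high rate. Ribosomal protein genes also have many processed pseudogene copies, so a probe may see transcripts of more than one copy.

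The sequences at the listed transcript starts are shown for the TOP tract, a feature that the choice by name did not use and that a minority of the listed member starts held as they stand. RefSeq's start table (GRCm38.p6) held 58 starts for 48 of the 59 members. A start was counted as TOP-like where the start base is C and the next 4 bases are pyrimidines. This held for 9 of 58 member starts (15.5%) against 823 of 32851 listed starts of all genes (2.51%) and 0 of 73 starts of mitochondrial ribosomal protein genes. The 9 windows below run 5′ to 3′ from 20 bases before the start, with the pyrimidine run that begins at the start base in capitals.
Rpl14, chr9:120571497-120571531, plus strand: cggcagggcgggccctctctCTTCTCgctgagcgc
Rpl28, chr7:4792945-4792979, plus strand: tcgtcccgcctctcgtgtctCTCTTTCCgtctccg
Rpl35, chr2:39005117-39005151, minus strand: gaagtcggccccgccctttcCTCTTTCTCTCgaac
Rpl38, chr11:114668560-114668594, plus strand: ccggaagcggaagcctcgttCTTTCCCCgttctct
Rplp2, chr7:141447631-141447665, plus strand: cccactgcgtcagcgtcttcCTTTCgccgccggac
Rps6, chr4:86857353-86857387, minus strand: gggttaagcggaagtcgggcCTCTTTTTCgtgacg
Rps10, chr17:27635230-27635264, minus strand: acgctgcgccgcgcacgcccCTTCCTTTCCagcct
Rps15a, chr7:118116133-118116167, minus strand: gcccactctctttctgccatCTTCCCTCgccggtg
Rps21, chr2:180257359-180257393, plus strand: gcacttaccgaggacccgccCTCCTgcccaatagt

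The runs were 5 to 11 bases long, the longest at Rpl35. Listed starts can lie some bases away from the start a cell uses. Where the tract was allowed to begin anywhere from 5 bases before to 10 after the listed start, it was found at 31 of 58 member starts (53.4%), at 22 of 73 mitochondrial ribosomal protein starts (30.1%) and at 24.3% of all starts. Both motifs that follow were searched on either strand of the 300-base window, 250 bases before to 50 after the start. The core of the ETS factor motif, CCGGAAG, was present at 39.7% of member starts, 35.6% of mitochondrial ribosomal protein starts and 8.86% of all starts. The letters CCATNTT, the core of the YY1 motif, were present at 29.3%, 31.5% and 16.1%. A match or its absence in these windows is a description of letters and not of binding. Knockout minus control, the 9 members with a TOP-like listed start had a median log2 difference of 0.008 (range -0.089 to 0.113), and the 39 members with other starts had a median of -0.003 (range -0.20 to 0.375).

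Facts of the whole series bear on these readings. The deposited values lie on a log scale, taken as base 2, from 7.71 to 14.78 with a median of 7.87 and an upper quartile of 8.27, and their distributions had been made nearly identical between arrays. Arrays correlated at r = 0.994 to 0.997 over all probes. The Snai1 probes read 7.82 to 7.94 on control arrays and 7.83 to 7.96 on knockout arrays, near the median of all probes, so they do not check the labels. Of 25 epithelial and intestinal marker genes, 20 had a mean above the upper quartile, among them Vil1 and Cdh1, while the readings of Fabp1 and Epcam did not exceed it. Their summed level, as the mean per gene, ran from 10.65 to 10.85 on control and 10.64 to 10.90 on knockout arrays. None of 18 markers of immune, endothelial, mesenchymal, glial or red blood cells exceeded it (mean per gene 7.85 to 7.86 on control and 7.86 to 7.87 on knockout arrays).

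**Figure D1:**
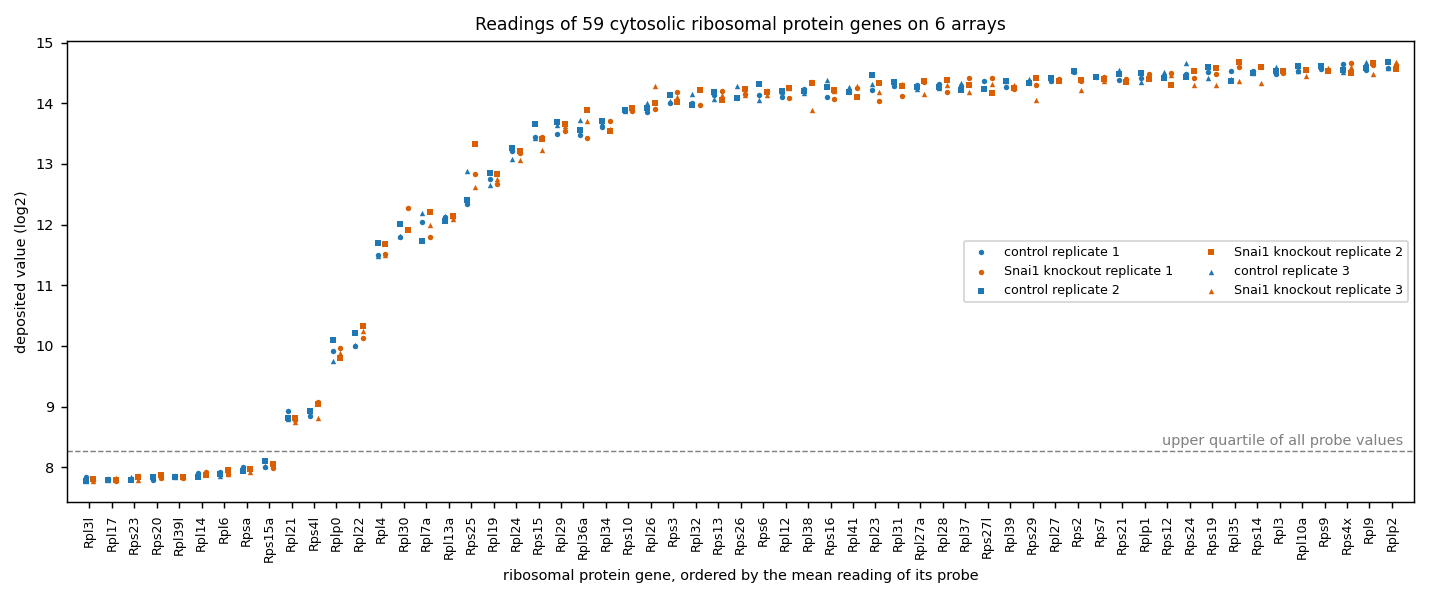
Deposited value (log2, vertical axis) of the brightest probe of each of the 59 genes on 6 arrays, with control in blue and Snai1 knockout in orange and marker shape giving the replicate number. The dashed line marks the upper quartile of all values (8.27), below which 9 genes lie, while 33 lie at 14 or above.

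Most members read at the very top of the scale, and no member passed the test. In 33 of the 59 the brightest probe averaged 14 or more, against a highest value of 14.78 for any probe, and these were 33 of the 100 genes that reached 14 on this platform. A further 17 lay between the upper quartile and 14, and 9 lay at or below the upper quartile. With limma and Benjamini-Hochberg adjustment over all genes, 0 of 59 members were called, where 25 of 19057 genes were (0.131%). A fit that takes replicate numbers as a block called 9 of these 25, no further gene and again 0 members. The lowest adjusted p among members was 0.35, and with the block 0.16. At an unadjusted p under 0.05 there were 0 members with a positive and 1 with a negative difference, against 3.88% and 3.34% of all genes. The 3 knockout values lay wholly above the 3 control values for 0 members and wholly below for 1, against 6.2% and 5.85% of all genes. Above the upper quartile, where 50 of the 59 members lay, both were more frequent. Of the 6969 genes there, 580 were higher and 459 lower at an unadjusted p under 0.05. Knockout values lay wholly above for 584 and wholly below for 456.

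Knockout minus control, the members' median log2 difference was 0.004 (quartiles -0.04 and 0.022), with 31 positive and 28 negative. Over all genes the median was -0.001, and over the 6969 genes above the upper quartile it was 0.004 (quartiles -0.066 and 0.073). The large subunit had a median of 0.006 over 35 genes and the small subunit -0.006 over 24. For 50 of 59 members the difference was smaller than 0.1 in size, and for 1 it exceeded 0.2, as it did for 3.09% of all genes and 8.28% of those above the upper quartile. The median standard error was 0.056.

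The intervals say how large an undetected change could be on the deposited scale. For 58 of 59 members the 95% interval of the difference lay within 0.5 either way (1.41-fold), the exception being Rps25. For 41 it lay within 0.25 (1.19-fold). With the block these counts were 58 and 46. The intervals of Rps2, Rpl23 and Rpl22 then lay wholly on one side of 0 (blocked limma unadjusted p = 0.0086, 0.0025 and 0.0043). The share of all genes with such an interval under the block was not counted here. These 3 of 59 members therefore have no background beside them. The interval bounds hold for the values as deposited. Whether the 33 members at 14 or above were near saturation was not tested, and the 9 at or below the upper quartile lie where most probes of the platform do.

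**Figure D2:**
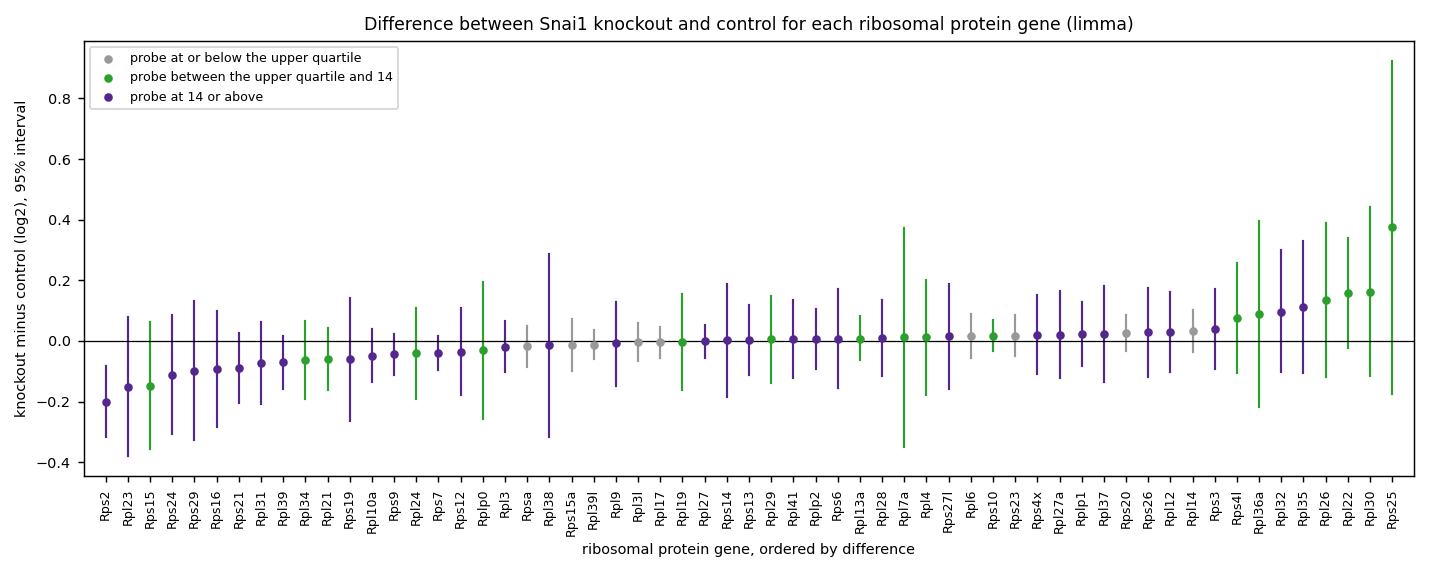
Knockout minus control on the log2 scale (point) with its 95% limma interval (line) for each of the 59 genes, ordered by difference and coloured by the reading of the probe. The interval of Rps2 lies wholly below 0 at -0.316 to -0.083, and Rps25 has the widest, from -0.175 to 0.925.

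Of the small subunit, Rps2 was the member with the lowest p. Rps2 encodes a protein at the mRNA entry channel that takes part in decoding accuracy. Its brightest probe read 14.51, 14.53 and 14.53 on control replicates 1 to 3 and 14.37, 14.38 and 14.21 on knockout replicates 1 to 3. All knockout arrays lay below all control arrays. The log2 difference was -0.20 ± 0.05 (SE), with a limma adjusted p of 0.35 and an unadjusted p of 0.0058, and control was 1.15-fold higher. The second Rps2 probe read 14.3 on average and differed by 0.000 ± 0.06 (SE), with groups that overlapped, so the difference was seen by 1 of 2 probes.

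Rps25, a protein of the small subunit's head that is needed for initiation on some viral internal ribosome entry sites, had the largest difference of any member with all 6 arrays. It read 12.35, 12.41 and 12.89 on control arrays and 12.83, 13.33 and 12.61 on knockout arrays. The groups overlapped, since control replicate 3 lay above 2 of the knockout arrays. The difference was 0.375 ± 0.22 (SE; limma adjusted p = 0.85). The knockout array of a replicate number lay above its control in 2 of 3 cases. Its standard error was the widest of the members, whose median was 0.056. The difference was 0.172 without knockout replicate 2 and 0.545 without control replicate 3.

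Other proteins of the small subunit's mRNA path gave smaller values. Rps3, at the mRNA entry and also a repair endonuclease, averaged 14.06 ± 0.07 in control and 14.10 ± 0.08 in knockout organoids (mean log2 value and SD, n = 3 each). Rps15, near the decoding site, read 13.44, 13.66 and 13.43 against 13.45, 13.41 and 13.23. Its difference was -0.147 ± 0.09 (SE; limma adjusted p = 0.84), with overlapping groups. Of the 11 measured genes in a list of mRNA entry, exit and decoding proteins, 0 were called, 5 had a positive and 6 a negative difference, and the median was -0.018.

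Rps6, the substrate of S6 kinase and the usual readout of mTOR activity by its phosphorylation, read 14.14, 14.31 and 14.06 on control and 14.21, 14.19 and 14.14 on knockout arrays. The difference was 0.008 with an interval of -0.156 to 0.172, and the knockout values lay inside the control range. Rps16, a neighbour of the decoding region, differed by -0.093, with overlapping groups. Rps24 and Rps29, both mutated in Diamond-Blackfan anaemia, differed by -0.111 and -0.098, also with overlapping groups. The other Rps24 probes, at 10.3, 8.22 and 7.79, differed by 0.095, -0.171 and -0.002. For Rps29, knockout replicate 3 alone stood low, at 14.05, while the other 5 arrays read 14.30 to 14.42, and without it the difference was 0.006. Rps21 lies nearest to Snai1 of the 4 members on chromosome 2, with 71 steps between them in the order of measured genes. It read 14.38, 14.49 and 14.55 against 14.40, 14.35 and 14.40, a difference of -0.089 ± 0.05 (SE; limma adjusted p = 0.81). Within 30 measured genes of Rps21 lies Atp5e, 1 of the 25 genes called, at -0.58. Its distance is 19 measured genes. Further members lie within 30 of a called gene, Rps24 at 8 from Tmem254a (0.53) and Rps20 at 27 from Esrp1 (1.26). The share of all genes that lie within 30 of a called gene is not given here. With the replicate block Atp5e and Tmem254a were not called, and whether such places bear on the members was not tested.

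In the large subunit, the P-stalk, which recruits translation factors, showed no change that passed. Rplp1 averaged 14.42 ± 0.075 in control and 14.44 ± 0.037 in knockout organoids, and Rplp2 14.62 ± 0.057 and 14.62 ± 0.052 (mean log2 value and SD, n = 3 each). Neither gene's groups were apart. Rplp0, which anchors the stalk and often serves as a reference gene in qPCR, read 9.91, 10.10 and 9.76 on control and 9.97, 9.81 and 9.89 on knockout arrays. Its difference was -0.031 with an interval of -0.256 to 0.194. Rpl9 and Rplp2 were, with Rps4x, the 3 brightest members, and Rpl9 differed by -0.008 ± 0.06 (SE).

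Proteins around the peptide exit tunnel likewise gave 0 calls among 10 measured genes, with 5 positive, 5 negative and a median difference of 0.001. Rpl4, which reaches into the tunnel wall, read 11.55 ± 0.12 and 11.57 ± 0.10. Rpl26, at the tunnel exit and a regulator of p53 translation, read 13.86, 13.92 and 14.01 against 13.90, 14.003 and 14.29. It was higher on the knockout array in 3 of 3 pairs, by 0.135 ± 0.10 (SE; limma adjusted p = 0.91). Knockout replicate 3 stood highest, and without it the difference was 0.024. Rpl35, where the signal recognition particle docks, differed by 0.113 and Rpl32 by 0.097, both with overlapping groups.

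Rpl22 and Rpl23 had the lowest p of all members once the replicate number was taken as a block, and neither passed. The block favours genes whose pairs move alike, so their agreement in 3 of 3 pairs follows from this choice and adds no support. Further members had such agreement, among them Rpl14 and Rps20 (higher in 3 of 3) and Rpl24, Rps7 and Rps9 (lower in 3 of 3). Rpl23 is one of the ribosomal proteins that bind the p53 ligase Mdm2 when ribosome assembly fails. It read 14.22, 14.47 and 14.32 on control and 14.04, 14.33 and 14.19 on knockout arrays, lower on the knockout array in 3 of 3 pairs while the groups overlapped. The difference was -0.151 ± 0.09 (SE; limma adjusted p = 0.86, and 0.16 with the block). Of its other probes, those at 14.2, 11.3 and 7.79 differed by -0.015, 0.055 and 0.000, so the value rests on 1 of 4 probes.

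Rpl22, a protein that mice can live without, also binds its own and other RNAs outside the ribosome. It read 9.998, 10.21 and 10.02 on control and 10.13, 10.33 and 10.24 on knockout arrays, higher in 3 of 3 pairs with overlapping groups. The difference was 0.158 ± 0.07 (SE; limma adjusted p = 0.75, and 0.18 with the block). Its paralogue Rpl22l1, which the rule does not include, read 8.68 ± 0.10 and 8.52 ± 0.15, a difference of -0.17 ± 0.09 (SE; adjusted p = 0.80). Rpl30, which binds kink-turn RNA and can regulate its own transcript in yeast, read 11.79, 12.02 and 11.81 against 12.27, 11.91 and 11.93, where knockout replicate 1 stood high, and differed by 0.163 ± 0.11 (SE), or 0.047 without that array. It lies within 30 measured genes of the called genes Sema5a, at 0.80, and Cmbl, at -0.80, the latter not called with the block.

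Paralogues with restricted expression read near the bottom of the scale. Rpl3l, known from skeletal muscle and heart, averaged 7.79, and Rpl39l, known from testis, 7.84, both below the median of all probes. Their counterparts read 14.54 ± 0.06 on control and 14.52 ± 0.02 on knockout arrays for Rpl3, and 14.34 ± 0.05 and 14.27 ± 0.04 for Rpl39, which differed by -0.071 ± 0.04 (SE; limma adjusted p = 0.78). Readings of different probes are not comparable as amounts, so these values do not order the genes. Rps27l, a p53 target that replaces Rps27 in some ribosomes, read 14.37, 14.24 and 14.26 on control and 14.43, 14.17 and 14.32 on knockout arrays. Its difference was 0.015 with an interval of -0.158 to 0.189. Rps4x read 14.57 ± 0.07 and 14.59 ± 0.08, and the pseudogene Rps4l 8.905 ± 0.045 and 8.98 ± 0.145. Rpl36a differed by 0.089 ± 0.13 (SE), and its paralogue Rpl36al, outside the rule, by -0.06 (adjusted p = 0.96).

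Several members that every ribosome contains also read near the bottom. Rpl17, Rps23 and Rps20 averaged 7.80, 7.83 and 7.83, and Rpl14, Rpl6, Rpsa and Rps15a 7.89, 7.90, 7.97 and 8.04, all under the upper quartile. Rpsa, the laminin receptor and a small subunit protein, read 7.98 ± 0.04 and 7.96 ± 0.03 by its brighter probe. Rpl17 read 7.80 ± 0.01 and 7.80 ± 0.02 and Rps23 7.82 ± 0.03 and 7.83 ± 0.04. Together with Rpl3l and Rpl39l these make up the 9 members at or below the upper quartile, whose differences ran from -0.018 to 0.033. Of the 25 genes called among all 19057, 3 also lay there. The 6969 genes above the upper quartile held the others, 6 called higher and 16 called lower. Calls were thus rarer at readings this low, and the absence of a call for these 9 members says little.

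The probes of a single gene differed in the same way. Of the 20 members with more than 1 probe, 10 had probes whose mean readings lay over 3 log2 units apart, and 10 had at least 1 probe at or below the upper quartile. The widest span was that of Rplp2, whose probes averaged 14.6 and 7.82. Rps24 had 4 probes at 14.5, 10.3, 8.22 and 7.79, and Rpl37 had 1 probe at 14.3 and 2 at 7.84. Of all 88 member probes, 21 lay at or below the upper quartile and 38 at 14 or above. A low reading of 1 probe thus stood beside a high reading of another probe of the same gene.

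**Figure D3:**
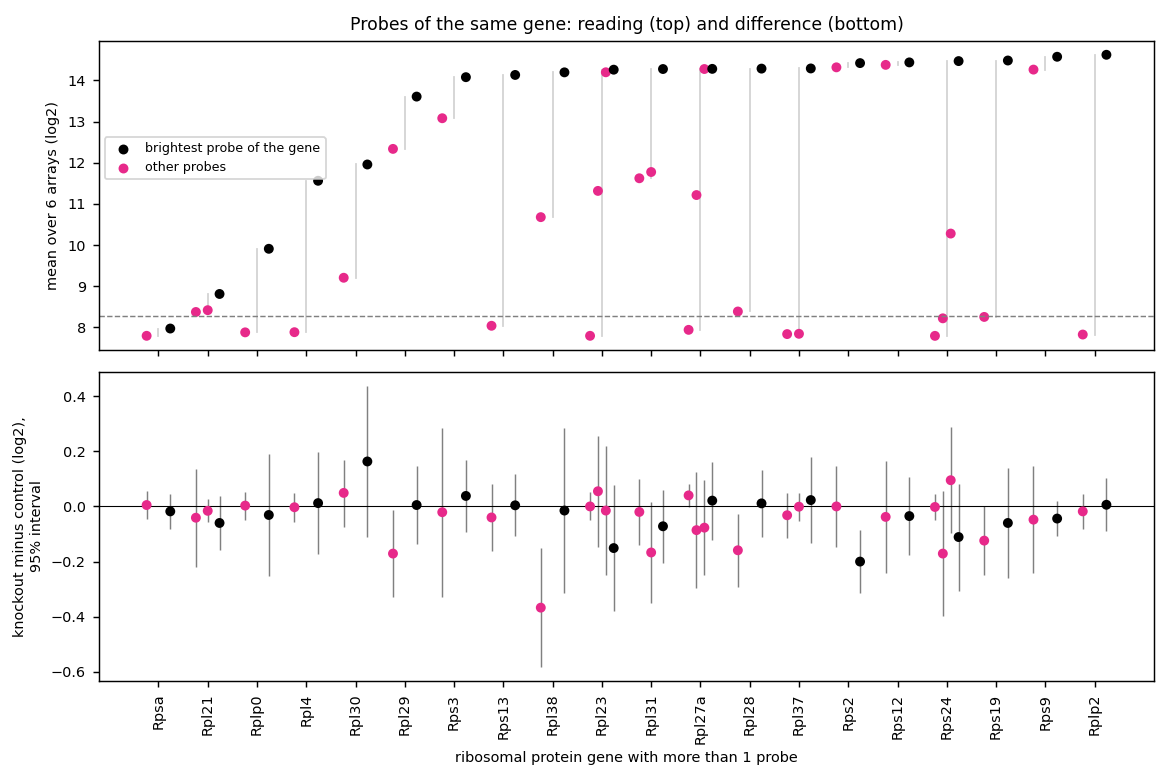
Mean reading over 6 arrays (top) and knockout minus control with its 95% limma interval (bottom), both on the log2 scale, for each probe of the 20 genes with more than 1. Black marks the brightest probe of a gene and pink the others, and the dashed line marks the upper quartile. The second probe of Rpl38 has the largest difference, at -0.367.

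In 12 of these 20 genes the probes' differences had opposite signs. For some, such as Rpl4 (-0.003 and 0.012) and Rplp2 (-0.018 and 0.006), both differences lay near 0. The share of other genes with opposite signs is not given here. The largest difference among further probes was that of Rpl38, a large subunit protein known for its part in translating Hox mRNAs. Its second probe read 10.78, 11.05 and 10.75 on control arrays and 10.52, 10.56 and 10.40 on knockout arrays, all knockout values lying below all control values. The difference was -0.367 ± 0.09 (SE), and the limma p adjusted over all probes was 0.46. Its brightest probe read 14.2 on average and differed by -0.015 ± 0.12, so the probes did not give the same value. Of the 88 probes 0 were called, against 0.0883% of all probes, and the groups did not overlap with knockout lower for 4 and knockout higher for 1, against 5.37% and 5.87% of all probes. Those lower were probes of Rps2, Rpl38, Rpl29 (-0.171) and Rps19 (-0.124), and the probe that was higher was a dim one of Rpl27a (0.040).

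The members as a whole showed medians that overlapped between the groups of arrays. Taken as the deviation from each gene's own mean over 6 arrays, the members' median was -0.006, 0.006 and -0.001 on control replicates 1 to 3 and 0.002, 0.009 and -0.015 on knockout replicates 1 to 3. The number of members above their own mean was 27, 32 and 29 on control arrays and 30, 37 and 28 on knockout arrays, so the groups overlapped. In pairs of the same number the median difference was 0.012, -0.014 and -0.022, with 33, 28 and 26 of 59 members higher on the knockout array. The 33 members at 14 or above had a median difference of -0.001, and the 67 other genes at 14 or above -0.005. Because the arrays' distributions were equalised before deposit, a change shared by all of the brightest genes could be hidden in these values.

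**Figure D4:**
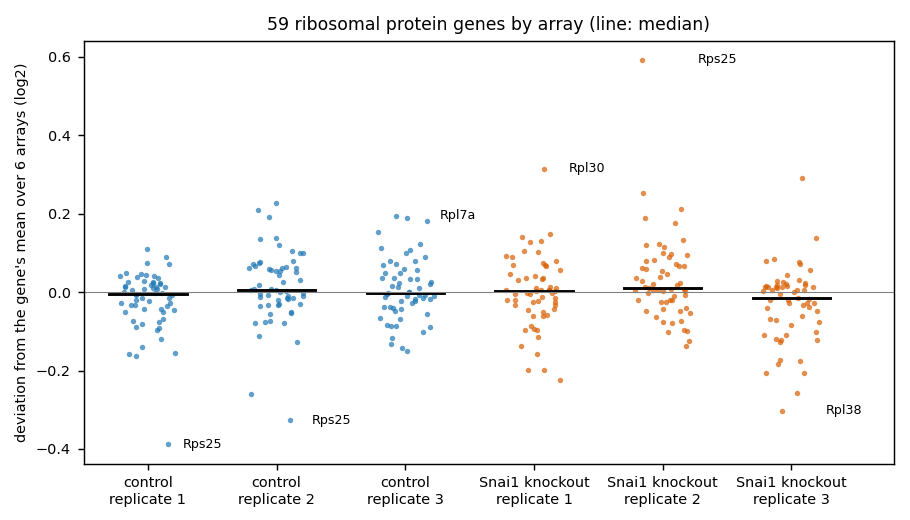
Deviation of each of the 59 genes from its own mean over 6 arrays (log2, vertical axis), by array, with control in blue and Snai1 knockout in orange. The black line is the median of the members, which lies between -0.015 and 0.009 on every array, and the gene farthest from 0 is named.

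Related gene sets give the setting for this result. Mitochondrial ribosomal protein genes, which build the separate ribosome of mitochondria, had 0 of 76 genes called. Their differences were mostly negative, 63 of 76, with a median of -0.107, against 28 of 59 and 0.004 for the cytosolic genes. The difference between the families was not tested. The deviation from each gene's mean had a median of 0.039, 0.1 and 0.012 on control arrays and 0.013, -0.047 and -0.095 on knockout arrays, so control replicate 3 and knockout replicate 1 lay level. In pairs of the same number the median difference was -0.024, -0.167 and -0.131, and without control replicate 2 it was -0.0637 over all 76. At an unadjusted p under 0.05 there were 1 positive and 22 negative, against the 3.88% and 3.34% of all genes given above. Of the 76, 69 lay above the upper quartile, where the shares were larger, at 580 positive and 459 negative of 6969 genes.

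Mrps5, Mrpl30 and Mrps21 had the lowest p of the mitochondrial set. Mrps5, of its small subunit, read 9.58, 9.61 and 9.60 on control and 9.48, 9.49 and 9.48 on knockout arrays, all knockout values below all control values. Its difference was -0.11 ± 0.02 (SE; limma adjusted p = 0.24). Mrpl30 differed by -0.12 ± 0.02 (adjusted p = 0.27) and Mrps21 by -0.23 ± 0.05 (adjusted p = 0.28).

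**Figure D5:**
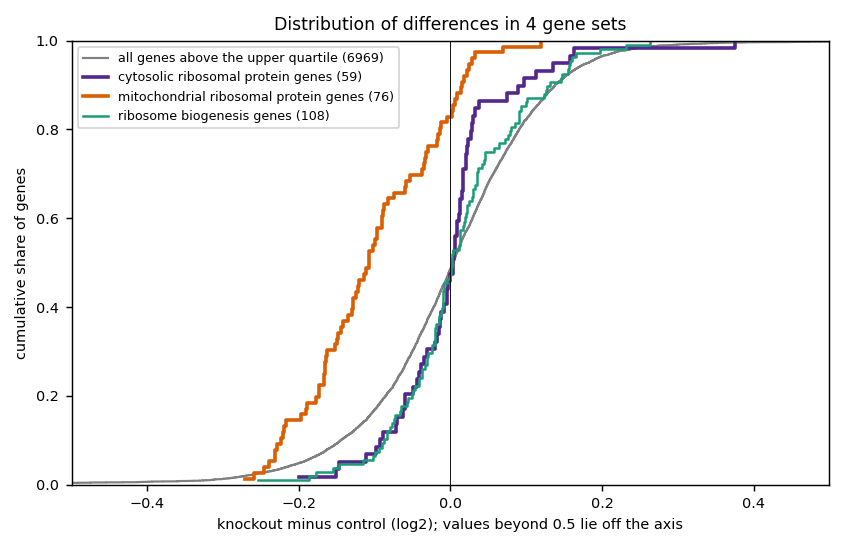
Cumulative share of genes (vertical axis) by knockout minus control (log2, horizontal axis) for cytosolic ribosomal protein genes (59, purple), mitochondrial ribosomal protein genes (76, orange), ribosome biogenesis genes (108, green) and all genes above the upper quartile (6969, grey). The purple curve crosses the middle at a median of 0.004 and the orange one at -0.107.

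Ribosome biogenesis genes, which transcribe and process ribosomal RNA and assemble the subunits, had 0 of 108 called, with 58 positive, 50 negative and a median difference of 0.002. Nol10 differed by 0.16 ± 0.03 (SE; limma adjusted p = 0.23), Rpf2, which loads the small 5S ribosomal RNA particle, by -0.25 ± 0.06 (adjusted p = 0.34), and Riok3, a kinase of small subunit maturation, by 0.20 ± 0.05 (adjusted p = 0.35). Of other mRNAs with a TOP tract, 0 of 21 were called, with 15 positive, 6 negative and a median of 0.033. Npm1, a nucleolar chaperone, read 13.90, 13.91 and 13.82 on control and 14.09, 13.99 and 14.02 on knockout arrays and differed by 0.16 ± 0.04 (adjusted p = 0.35). Nap1l1 differed by 0.19 ± 0.07 and Eef2, the factor that moves the ribosome along mRNA, by 0.26 ± 0.10.

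Regulators of ribosomal protein synthesis had 0 of 18 called, 14 positive and 4 negative, with a median of 0.026. Tsc2, a brake on mTOR, read 10.38, 10.37 and 10.40 on control and 10.50, 10.48 and 10.55 on knockout arrays, a difference of 0.13 ± 0.02 (SE; limma adjusted p = 0.28). Deptor, an mTOR-binding inhibitor, differed by 0.25 ± 0.06 (adjusted p = 0.34) and Yy1, at the bottom of the scale, by 0.06. Rps19bp1, a partner of Rps19 that the rule leaves out, read 9.32, 9.29 and 9.30 against 9.10, 8.95 and 8.89. Its difference was -0.32 ± 0.05 (SE; adjusted p = 0.23). Among 10 measured members whose human counterparts are mutated in Diamond-Blackfan anaemia, 0 were called, 4 were positive and 6 negative, and the median was -0.02.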

How the data were processed

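The authors deposited log-scale values, assumed to be log2, of 45281 probes on 6 Illumina arrays of biotin-labelled cRNA, per the labels' protocols. The sorted values differed by at most 0.0019 between arrays, so the values had been equalised before deposit. For the log base, background correction and software, the sources used here give nothing. There are no detection calls, and the number of arrays limits the precision.

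A gene's values are those of its brightest probe (mean of 6 arrays), named through the platform annotation (34885 probes with 1 gene, 18 with several, 10378 unnamed). Knockout minus control was fitted with limma 3.58.1 in R 4.3.3 on all 19057 genes, without a filter. Benjamini-Hochberg adjusted p under 0.05 was the threshold. The fit was also run on simulated data with independent noise on each array and added changes larger than any member's fitted difference. That run therefore does not give the power for changes as small as those of the members. Members and lists were chosen with earlier results of these data known. Named genes are the fixed P-stalk, paralogue and role examples, the 6 most positive and 6 most negative differences, any with unadjusted p under 0.05, the 3 brightest and 3 dimmest, and the 3 of lowest p per other list. Others were named after their values were seen. Motifs were chosen likewise.

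Deviations of same-numbered arrays correlated at r = 0.349, 0.327 and 0.456, and those of differently numbered arrays at 0.003 at most. Same-numbered arrays thus resembled each other more, although the labels do not say what they share. The intervals and p-values come from the fit without a block, and blocked values are named where given. The members' median standard error was 0.056 without the block and 0.039 with it.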

Additional observations from a re-analysis of the deposited data

How the results depend on the processing

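The count of 0 called members, and of 0 called mitochondrial ribosomal protein, ribosome biogenesis and other TOP genes, stood under the alternatives that follow. These were the replicate block, cyclic loess, centring on the 500 brightest other genes and a filter at the upper quartile (50 members tested). They also included the mean of a gene's probes, trend and robust variances, array weights and each left-out array. A further alternative adjusted p over all probes but read only the brightest probe of each gene. For the members alone, all 88 probes were read. The members' count of 0 also stood with close names and with Rps3a1 added, the latter chosen after seeing the data. The count over all genes was 25 as fitted, 9 with the replicate block, 41 above the upper quartile, 71 with trend and robust variances, and 4 to 23 when leaving out each array. The members' median difference ran from -0.0141 to 0.0052 when leaving out each array, and the pairing with the block changed no call among the members or these lists. Of the 31 members chosen by the naming rule, 17 kept their sign in all alternatives, and none whose difference exceeded 0.098 in size changed it. Among these 31, averaging each gene's probes gave smaller differences for Rps2 (-0.10), Rpl23 (-0.028), Rps24 (-0.047) and Rpl30 (0.106). Averages of the other members are not given here. Of those, Rpl38, Rpl29 and Rpl28 each had a further probe (-0.367, -0.171 and -0.159) farther from 0 than the brightest (-0.015, 0.005 and 0.011). Averaging therefore need not make a member's difference smaller. The mitochondrial set's median, followed after seeing the data, ran from -0.131 to -0.0637 over leaving out each array. At or below the upper quartile, where 9 members lie, the file gives no detection call.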
